A study of Talinum fruticosum with 24 samples.

Results

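The change in transcript levels between the end of the day and the end of the night was compared between droughted and re-watered leaves of Talinum triangulare, a herb listed in the labels as Talinum fruticosum that can switch from C3 photosynthesis to crassulacean acid metabolism (CAM). The droughted leaves, in the photosynthetic mode named CAM, came from plants that had been without water for 12 d. The other leaves, in the mode named reC3, came from plants that had received water again for 2 d after the same 12 d of drought. Each mode was sampled at the end of the night (EN, zeitgeber time 24 h) and at the end of the day (ED, zeitgeber time 12 h), with 3 biological replicates in each of these 4 groups. All plants had first been watered well for 28 d, all tissue was mature leaf, and no group held plants that were never droughted, so drought and the photosynthetic mode it brings, or a change on re-watering, cannot be told apart. These 12 of the 24 libraries in the series belong to 1 set, and 14065 of the 22079 genes in the deposited table had enough counts to be tested.

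For each gene the swing is the log2 ratio of EN to ED within a mode, and the interaction is the CAM swing minus the reC3 swing. A positive interaction means that the level moved further up, or less far down, over the night in droughted leaves. Levels are given in CPM, a gene's count as a share of its library's total, with the total scaled for the composition of the library. An interaction or swing was called at a Benjamini-Hochberg adjusted p under 0.05 in edgeR's quasi-likelihood test over all genes tested. SE is an approximate standard error, derived as the size of the log2 value divided by the square root of the test's F statistic. Reads were assigned to Arabidopsis thaliana gene identifiers, so the names and roles below are those of the Arabidopsis genes, and reads of close paralogs may be shared or split among them.

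In CAM plants, phosphoenolpyruvate (PEP) carboxylase fixes CO2 in the dark, and a kinase made at night keeps the enzyme active by phosphorylation. The malate formed is stored in the vacuole and broken down behind closed stomata by day, while PEP for the night comes largely from starch. The circadian clock times these steps, and many of its genes peak near dawn or near dusk in plants without CAM as well.

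The 12 libraries held 4310225 to 8756145 counts. The reC3 EN libraries stood apart: their mean correlations with their partners across genes were 0.941, 0.952 and 0.966, against 0.978 to 0.984 in the other 3 groups, and their 10 most abundant genes took 20.2% to 23.59% of the counts, against 6.91% to 16.5%. Replicate 1 of reC3 EN was the highest of its group for 37 of 39 light reaction genes and the lowest for 19 of 35 CAM carbon cycle genes. Across all genes tested it was the highest for 5747 and the lowest for 5737. Results that rest on this library are given with and without it. In whole leaf, fewer cells of a type and less RNA per cell cannot be told apart.

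A large share of the leaf's genes swung differently in the droughted leaves. The interaction was called for 5090 of 14065 genes, or 36.2%: it was positive for 2424 (17.2%) and negative for 2666 (19%). Of these calls 3469 were at least 2-fold and 1097 at least 4-fold. A CAM swing was called for 8956 genes (63.7%) and a reC3 swing for 8150 (57.9%). Among 5920 genes with both swings called, 5357 moved the same way in both modes and 563 opposite ways. When libraries were scaled by their totals alone, every gene's interaction shifted up by about 0.52 on the log2 scale (median over genes) and the split became 4265 positive and 1267 negative, so directions below are relative to the bulk of the genes. Of the 5090 calls, 3566 kept their sign and their call whichever of the 12 libraries was left out.

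The called genes fell into classes by which swings were called. A total of 1745 genes gained a swing under drought (called in CAM only), 1130 lost one (called in reC3 only), 563 reversed it, 997 had a larger and 553 a smaller swing of the same sign, and 102 had neither swing called. Gained swings had a median size of 1.22 on the log2 scale in CAM, and those lost had a median size of 1.21 in reC3. Reversed genes had medians of 0.87 in CAM and 0.85 in reC3. Scaling by totals alone gave 1073 gained, 1976 lost, 701 reversed, 708 larger and 1019 smaller. A swing that was not called could still be sizeable. With the uncalled swing also required to be under 0.5 in size on the log2 scale, 1513 genes gained and 950 lost a swing.

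**Figure D1:**
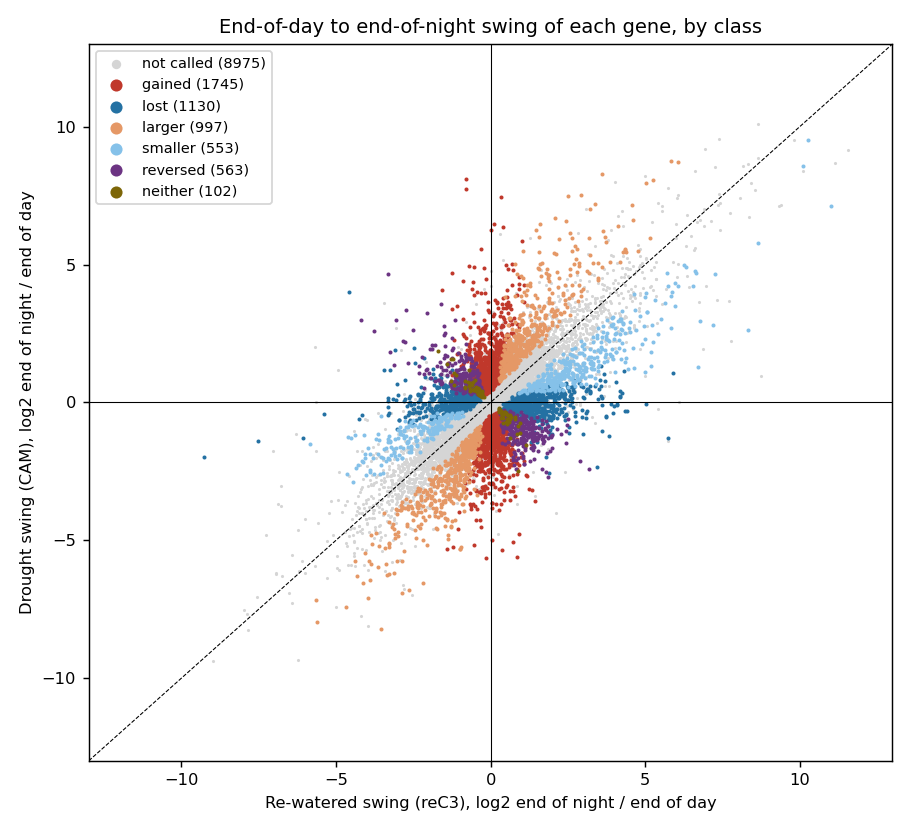
Swing of each of the 14065 genes in droughted leaves (CAM, vertical axis) against re-watered leaves (reC3, horizontal axis), as log2 of the EN over the ED level. Colours mark the classes of the 5090 called genes, grey points were not called, and the dashed line marks equal swings; the 563 reversed genes lie above and left, or below and right, of the origin.

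The 3 largest gained rises over the night were in a pair of proline dehydrogenases and a mitochondrial carrier. ProDH1, a proline dehydrogenase that starts the breakdown of proline, had 559, 508 and 927 CPM at EN and 1.77, 0.951 and 6.84 CPM at ED in CAM, against 4.70, 28.0 and 12.5 CPM at EN and 17.2, 22.6 and 39.9 CPM at ED in reC3. All 3 CAM EN libraries stood far above every other library. Its interaction was 8.53 ± 0.93 (SE, adjusted p = 2.6e-06), with swings of 7.72 in CAM and -0.80 in reC3. AT5G38710, the proline dehydrogenase ProDH2, had 633, 619.6 and 935 CPM at EN and 2.27, 1.19 and 4.56 CPM at ED in CAM, against 6.02, 34.0 and 18.8 CPM at EN and 21.6, 28.9 and 53.1 CPM at ED in reC3. The pattern was the same as for ProDH1, with which it may share reads, and its interaction was 8.91 ± 0.88 (SE, adjusted p = 8.04e-07). AT1G79900, of the mitochondrial substrate carrier family, had 601, 429 and 985 CPM at EN and 3.41, 5.47 and 2.42 CPM at ED in CAM, against 13.5, 18.8 and 21.3 CPM at EN and 13.1, 15.5 and 13.4 CPM at ED in reC3. Again no other library came near the CAM EN level, and the interaction was 7.11 ± 0.53 (SE, adjusted p = 2.55e-08).

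The largest gained falls were in a plastid lipid-associated protein and a pair of lipid-transfer type proteins. FIB4, a fibrillin of plastid lipid bodies, had 1.05, 0.427 and 0.379 CPM at EN and 28.9, 29.2 and 40.3 CPM at ED in CAM, against 65.6, 23.57 and 24.6 CPM at EN and 54.2, 38.4 and 33.2 CPM at ED in reC3. In CAM the EN libraries lay far below the ED libraries, while the reC3 groups overlapped, and the interaction was -5.51 ± 0.65 (SE, adjusted p = 4.26e-06). AT3G22142 and AT2G10940, both annotated as bifunctional inhibitor or lipid-transfer proteins, moved alike and may share reads. AT3G22142 had 1.196, 1.85 and 1.51 CPM at EN and 56.7, 42.2 and 53.9 CPM at ED in CAM, against 299, 9.75 and 9.49 CPM at EN and 112, 52.2 and 28.9 CPM at ED in reC3. AT2G10940 had 367, 15.8 and 11.1 CPM at EN and 170, 76.2 and 57.5 CPM at ED in reC3. Replicate 1 of reC3 EN was far above its partners in both genes, and the partners lay below every reC3 ED library. The lack of a fall in reC3, and with it the gained class, thus rests on that replicate in both genes. The interactions were -5.76, adjusted p = 0.00399 for AT3G22142 and -5.72, adjusted p = 0.00357 for AT2G10940, and without that library they were -2.30 and -2.44, at adjusted p = 0.034 and 0.0208.

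Swings lost under drought included a fall of a vacuolar protease and a beta-amylase. ALPHA-VPE, a vacuolar processing enzyme, had 135, 87.2 and 208 CPM at EN and 28.8, 34.0 and 96.6 CPM at ED in CAM, against 60.9, 95.2 and 60.7 CPM at EN and 505, 348 and 336 CPM at ED in reC3. The reC3 groups did not overlap, the CAM groups did, and the interaction was 3.89 ± 0.92 (SE, adjusted p = 0.00286). BAM6, of the beta-amylase family, had 38.9, 41.2 and 25.2 CPM at EN and 57.4, 32.1 and 56.0 CPM at ED in CAM, against 7.14, 24.99 and 45.3 CPM at EN and 503, 357 and 525 CPM at ED in reC3. Only the reC3 ED libraries were high, and the interaction was 3.69 ± 0.84 (SE, adjusted p = 0.00219). AT3G06890, which has no description in the table, had an interaction of 4.96 ± 0.80 (SE, adjusted p = 7.52e-05), with only 4 counts over the reC3 EN libraries.

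The 3 largest lost rises over the night were in APR2, AT1G51400 and AT1G21500. APR2, an adenylylphosphosulfate reductase of sulfate assimilation, had 13.5, 18.1 and 8.71 CPM at EN and 29.7, 25.8 and 39.1 CPM at ED in CAM, against 1199.9, 110.4 and 343 CPM at EN and 51.6, 22.9 and 42.3 CPM at ED in reC3. The reC3 EN libraries lay above all others but spread widely, and the interaction was -5.04 ± 0.94 (SE, adjusted p = 0.000444). AT1G51400, a 5 kD protein of photosystem II, had 126, 159.5 and 155 CPM at EN and 95.6, 64.7 and 51.1 CPM at ED in CAM, against 834, 135 and 249 CPM at EN and 8.66, 6.95 and 4.74 CPM at ED in reC3. Its interaction was -4.83 ± 0.82 (SE, adjusted p = 0.000183). In neither APR2 nor AT1G51400 did the CAM groups overlap. Their CAM swings were -1.22 (adjusted p = 0.118) and 1.06 (adjusted p = 0.0935), which were not called. AT1G21500, with no description in the table, had an interaction of -5.09 ± 1.17 (SE, adjusted p = 0.00228) and swings of -0.05 in CAM and 5.04 in reC3. In all 3 genes replicate 1 was the highest reC3 EN library. Each gene stayed called without it, as the rule for naming genes required. Over the fits that left out 1 of the 12 libraries, interactions were -5.53 to -3.76 for APR2 and -5.24 to -3.74 for AT1G51400. They were -5.68 to -3.60 for AT1G21500.

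**Figure D2:**
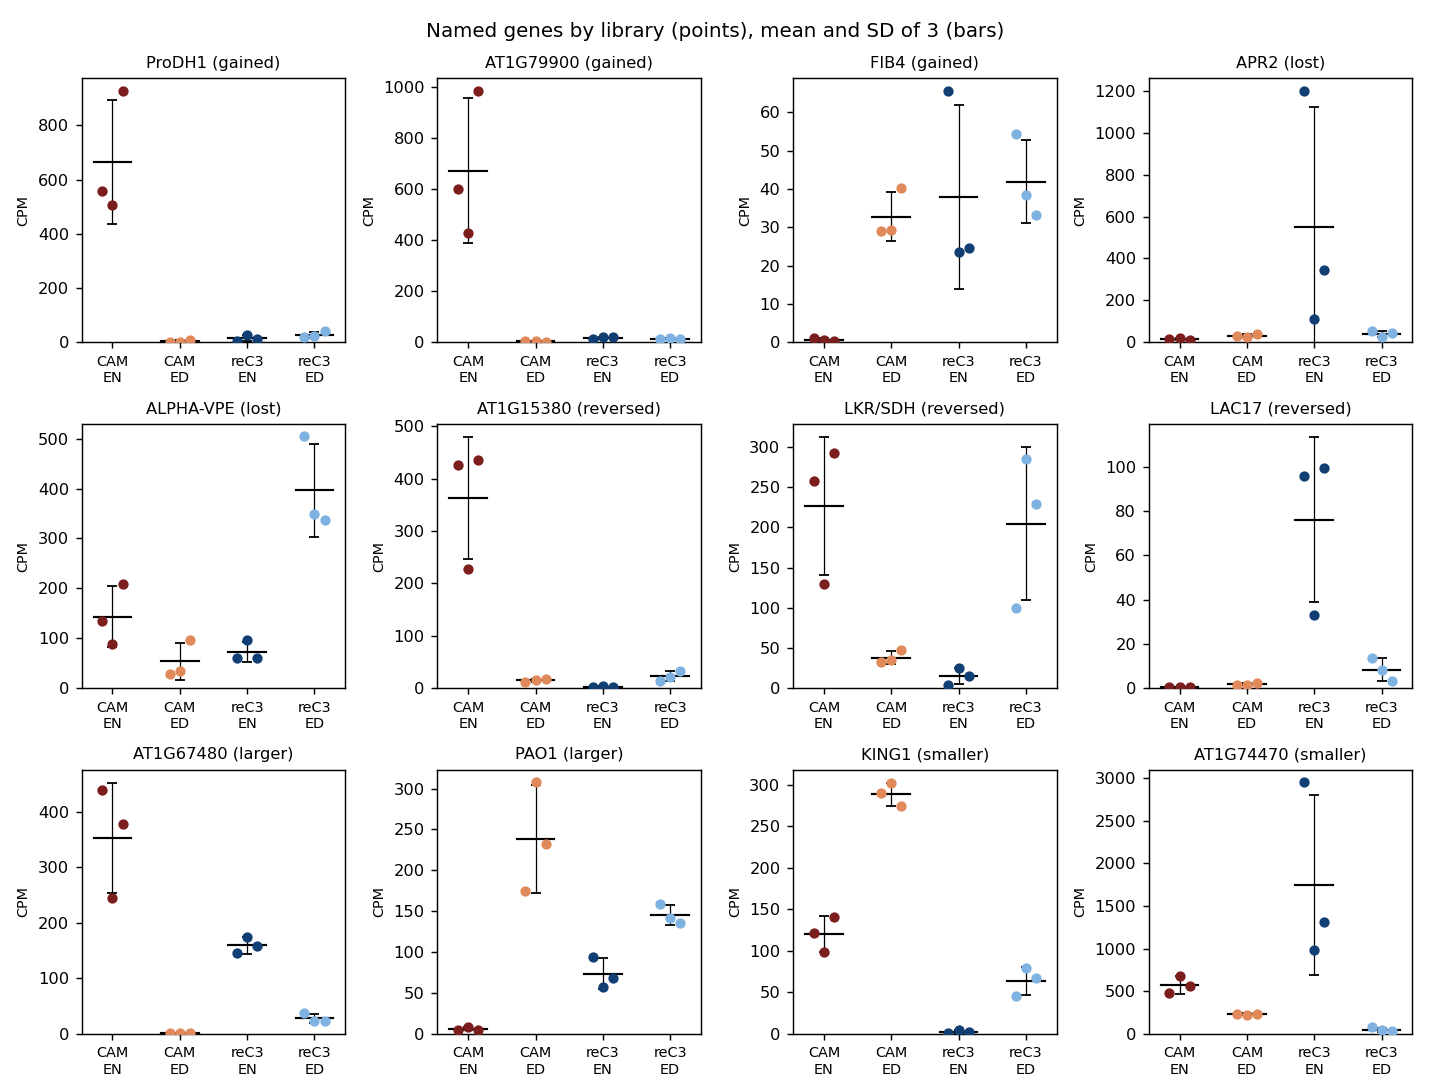
Levels in CPM (vertical axes) of 12 of the named genes in CAM EN, CAM ED, reC3 EN and reC3 ED leaves, from left to right in each panel. Points are the 3 libraries of a group, and bars give the mean and SD; ProDH1 and AT1G79900 are high in CAM EN alone, while AT1G15380 rises over the night in CAM and falls in reC3.

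Genes whose swing reversed to a rise under drought included AT1G15380, AT4G33150 and AT2G20670. AT1G15380, of the glyoxalase I family, had 426, 228 and 435 CPM at EN and 11.1, 15.3 and 16.8 CPM at ED in CAM, against 2.26, 2.84 and 1.498 CPM at EN and 12.9, 21.2 and 32.2 CPM at ED in reC3. Neither mode's groups overlapped, and the interaction was 7.97 ± 0.64 (SE, adjusted p = 5.91e-08), with swings of 4.65 in CAM and -3.32 in reC3. AT4G33150, the bifunctional lysine-ketoglutarate reductase and saccharopine dehydrogenase that starts lysine breakdown, had 258, 129 and 293 CPM at EN and 31.7, 34.3 and 47.5 CPM at ED in CAM, against 4.14, 24.6 and 15.5 CPM at EN and 100.2, 285 and 229 CPM at ED in reC3. CAM EN and reC3 ED were both high and the other groups low, and the interaction was 6.37 ± 0.72 (SE, adjusted p = 3.44e-06). AT2G20670, a protein of unknown function, had swings of 3.23 in CAM and -2.06 in reC3 and an interaction of 5.30 ± 0.79 (SE, adjusted p = 3.56e-05), with 4 counts over the reC3 EN libraries.

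Genes whose swing reversed to a fall under drought included a lignin laccase and a photosystem I antenna protein. LAC17, a laccase of lignin formation, had 0.299, 0.284 and 0.379 CPM at EN and 1.52, 1.43 and 2.42 CPM at ED in CAM, against 95.9, 33.0 and 99.7 CPM at EN and 13.5, 8.33 and 2.94 CPM at ED in reC3. It was low in every CAM library, lower still at EN, and the interaction was -5.60 ± 1.03 (SE, adjusted p = 0.000351). LHCA4, a light-harvesting protein of photosystem I, had 11.2, 8.67 and 5.87 CPM at EN and 45.1, 33.5 and 34.0 CPM at ED in CAM, against 1382, 75.3 and 181 CPM at EN and 125, 55.6 and 38.4 CPM at ED in reC3. The CAM groups did not overlap and the reC3 groups did, through the low reC3 EN replicate 2 and the high reC3 ED replicate 1. Its interaction was -5.02 ± 1.14 (SE, adjusted p = 0.00212), and -2.92 (adjusted p = 0.00899) without reC3 EN replicate 1. ENODL19, an early nodulin-like protein, had an interaction of -4.30 ± 1.09 (SE, adjusted p = 0.00455), and -2.26 (adjusted p = 0.00735) without that library. The rise of ENODL19 in reC3 rests on that library, as does much of the rise of LHCA4.

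Among genes that rose over the night in both modes, the rise was widened most under drought in AT1G67480, a kelch repeat protein. It had 438, 245 and 378 CPM at EN and 2.02, 1.66 and 2.15 CPM at ED in CAM, against 145, 175 and 158 CPM at EN and 37.3, 23.61 and 23.4 CPM at ED in reC3. The lowest level was at CAM ED, the highest at CAM EN, and the interaction was 4.998 ± 0.33 (SE, adjusted p = 2.41e-09). WRI1, a transcription factor of fatty acid synthesis, had 79.9, 60.3 and 85.2 CPM at EN and 1.14, 1.19 and 0.134 CPM at ED in CAM, against 0.752, 4.43 and 1.83 CPM at EN and 1.08, 0.926 and 0.163 CPM at ED in reC3. CAM EN stood alone, and the interaction was 4.87 ± 0.86 (SE, adjusted p = 0.000205). UGT73D1, a glucosyltransferase, had swings of 6.25 in CAM and 1.46 in reC3 and an interaction of 4.79 ± 0.66 (SE, adjusted p = 1.5e-05). Of the widened falls, PAO1, a polyamine oxidase, had 4.49, 7.96 and 5.11 CPM at EN and 175, 307 and 232 CPM at ED in CAM, against 94.2, 57.6 and 67.9 CPM at EN and 159, 141 and 136 CPM at ED in reC3. No groups of 1 mode overlapped, and the interaction was -4.34 ± 0.33 (SE, adjusted p = 1.94e-08). CHL, the chloroplast lipocalin, had swings of -5.31 in CAM and -1.003 in reC3 and an interaction of -4.31 ± 0.42 (SE, adjusted p = 3.22e-07). AT5G67290, an FAD-dependent oxidoreductase, had swings of -5.26 in CAM and -0.97 in reC3 and an interaction of -4.29 ± 0.43 (SE, adjusted p = 3.34e-07).

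The fall over the night was narrowed under drought in KING1, a regulatory gamma subunit related to SNF1 kinases. KING1 had 122, 98.5 and 141 CPM at EN and 291, 302 and 274 CPM at ED in CAM, against 0.940, 4.25 and 2.496 CPM at EN and 45.7, 78.9 and 67.7 CPM at ED in reC3. It was lowest by far in reC3 EN and fell without overlap in both modes, and the interaction was 3.36 ± 0.56 (SE, adjusted p = 0.000128). ATS1, listed as seed gene 1, and AT5G04220, a lipid-binding protein, had interactions of 3.25 ± 0.48 (SE, adjusted p = 3.03e-05) and 3.18 ± 0.46 (SE, adjusted p = 2.93e-05). The rise was narrowed most in AT3G06070, which has no description in the table, at -5.42 ± 1.03 (SE, adjusted p = 0.000473), with swings of 1.3005 in CAM and 6.72 in reC3. AT1G74470, the geranylgeranyl reductase of chlorophyll and tocopherol synthesis, had 476, 679 and 561 CPM at EN and 237, 221 and 231 CPM at ED in CAM, against 2948, 981 and 1306 CPM at EN and 74.7, 39.4 and 30.4 CPM at ED in reC3. Both modes rose without overlap, reC3 more steeply, and the interaction was -3.86 ± 0.55 (SE, adjusted p = 2.34e-05). AT5G38510, a rhomboid protease, followed at -3.89 ± 0.61 (SE, adjusted p = 6.92e-05). AT1G12460, a leucine-rich repeat kinase, was named by its own rule for genes with 3 counts or fewer in a group: it held 1 count over the CAM EN libraries and 19 over the CAM ED libraries, a ratio of 0.0659 with an exact 95% counting interval of 0.00159 to 0.414, against 169 counts at EN and 152 at ED in reC3. Its adjusted p was 0.00448.

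Interactions were then described over 25 lists of leaf genes, of which 388 entries were tested: 64 were positive and 144 negative calls, 53.6% in all, beside 36.2% of all genes. The median interaction was -0.57 over the list entries and -0.05 over all genes.

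**Figure D3:**
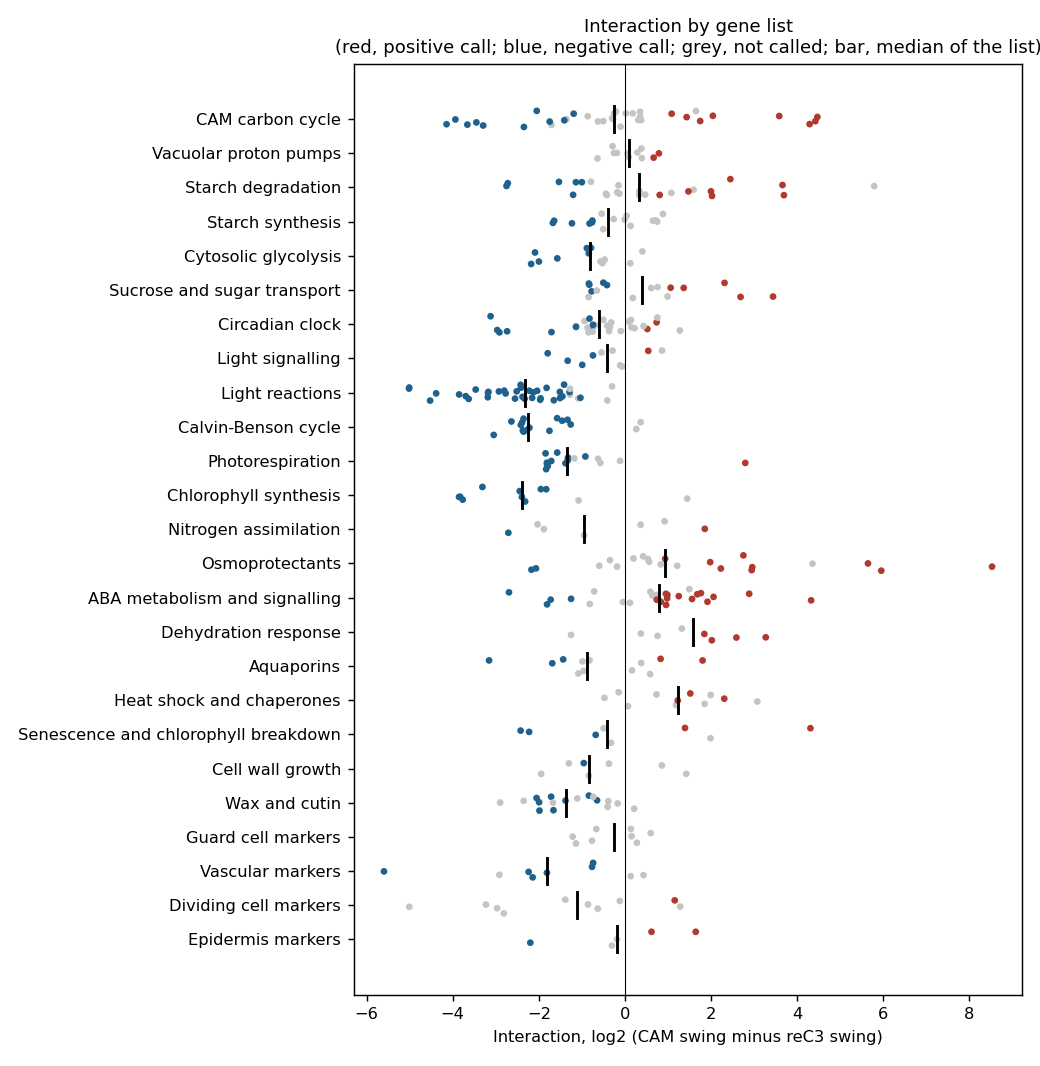
Interaction on the log2 scale (horizontal axis) of every tested member of the 25 gene lists (rows). Red points are positive calls, blue points negative calls and grey points were not called, with a black bar at the median of each list; the photosynthesis lists lie mostly left of 0 and the ABA, osmoprotectant and dehydration lists mostly right of it.

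In the CAM carbon cycle, PPCK1 rose over the night in both modes and further in CAM, PPCK2 rose in CAM only, and PPC1 and PPC2 rose in reC3 only. Of 35 tested members 8 were positive and 10 negative calls, 51.4% together. The list median was -0.25. It was 0.24 with scaling by totals alone, which gave 13 positive and 9 negative calls, -0.45 without reC3 EN replicate 1, -0.15 without CAM ED replicate 3, -0.10 without reC3 ED replicate 1 and 0.02 without reC3 EN replicate 2. PPCK1, a PEP carboxylase kinase, had 637, 664 and 744 CPM at EN and 24.9, 10.9 and 10.1 CPM at ED in CAM, against 62.8, 158 and 124 CPM at EN and 68.4, 58.7 and 39.1 CPM at ED in reC3. In CAM leaves EN and ED were far apart, while reC3 EN and ED overlapped. The interaction was 4.42 ± 0.48 (SE, adjusted p = 1.36e-06), with swings of 5.48 in CAM and 1.05 in reC3. PPCK2 had 119, 134 and 122 CPM at EN and 5.18, 3.57 and 3.09 CPM at ED in CAM, against 16.4, 29.4 and 21.6 CPM at EN and 19.4, 19.1 and 8.4998 CPM at ED in reC3. It followed PPCK1, with an interaction of 4.47 ± 0.42 (SE, adjusted p = 1.79e-07), and both kinases were lower at ED in CAM than in any reC3 library.

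The carboxylase genes did the reverse. PPC1, a PEP carboxylase, had 10029.8, 8501 and 7798 CPM at EN and 11423, 11401 and 10270.3 CPM at ED in CAM, against 1929, 9382 and 4979 CPM at EN and 624, 730.3 and 519 CPM at ED in reC3. Every CAM library was above every reC3 ED library. A swing was called in reC3 only, where replicate 1 of EN was the lowest and replicate 2 the highest. Its interaction was -3.45 ± 0.50 (SE, adjusted p = 2.62e-05), and -3.85 without reC3 EN replicate 1. PPC2 had 6286, 4916 and 4827 CPM at EN and 8461, 8210.4 and 7239 CPM at ED in CAM, against 1133, 5434 and 2917 CPM at EN and 363, 442 and 315 CPM at ED in reC3. It followed PPC1, with which it may share reads, at -3.66 ± 0.50 (SE, adjusted p = 1.22e-05). PPC4, a bacterial-type PEP carboxylase, had an uncalled interaction of -1.36, adjusted p = 0.0865.

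Carbonic anhydrases, some of which supply bicarbonate to PEP carboxylase in the cytosol or serve the chloroplast, split by member. BCA1 had 7035, 10006 and 9215 CPM at EN and 12109.7, 10819 and 4241 CPM at ED in CAM, against 42330.1, 10237 and 21102 CPM at EN and 2918, 835 and 562 CPM at ED in reC3. The reC3 rise was steep and the CAM groups overlapped, for an interaction of -4.14 ± 0.84 (SE, adjusted p = 0.000682). BCA3 had swings of 0.33 in CAM and 4.26 in reC3 and an interaction of -3.94 ± 0.75 (SE, adjusted p = 0.000427). BCA5 and BCA6 rose over the night in both modes and further in CAM, with interactions of 1.75 ± 0.34 (SE, adjusted p = 0.000475) and 1.43 ± 0.41 (SE, adjusted p = 0.00934). All 4 of the carbonic anhydrases tested were called.

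Of the genes of decarboxylation and PEP recovery, few differed in swing. PPDK, which regenerates PEP from pyruvate, had 21265, 22624 and 19194 CPM at EN and 535, 350.5 and 987 CPM at ED in CAM, against 2268, 28715 and 13256 CPM at EN and 209, 509 and 366 CPM at ED in reC3. It was much higher at EN in both modes, and within reC3 EN replicate 1 was far below its partners. Its interaction was -0.28, adjusted p = 0.807. RP1, the regulatory protein that switches PPDK on and off, had 61.0, 68.0 and 61.0 CPM at EN and 56.1, 58.1 and 47.5 CPM at ED in CAM, against 119, 167 and 171 CPM at EN and 20.8, 27.1 and 28.8 CPM at ED in reC3. The CAM swing was not called while reC3 rose, and the interaction was -2.35 ± 0.20 (SE, adjusted p = 7.62e-08). NAD-ME1, a mitochondrial malic enzyme, fell over the night in reC3 alone, with an interaction of 1.09 ± 0.16 (SE, adjusted p = 3.58e-05). The interactions of NADP-ME1 (0.02, adjusted p = 0.964), NADP-ME2 (-0.10, adjusted p = 0.814), NADP-ME4 (-0.25, adjusted p = 0.534), NAD-ME2 (0.35, adjusted p = 0.13), PCK1 (-0.86, adjusted p = 0.0866) and PCK2 (-1.71, adjusted p = 0.101), further malic enzymes and PEP carboxykinases, were not called. NAD-ME2 was a positive call with totals alone.

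Transporters of malate and PEP held 3 of the reversed swings in the list. DIC2, a mitochondrial dicarboxylate carrier, had 18.5, 9.53 and 30.1 CPM at EN and 3.03, 2.02 and 3.36 CPM at ED in CAM, against 8.84, 9.39 and 4.83 CPM at EN and 26.7, 29.7 and 8.66 CPM at ED in reC3. It rose over the night in CAM and fell in reC3, where reC3 ED replicate 3 lay within the range of EN. Its interaction was 4.29 ± 0.64 (SE, adjusted p = 4.25e-05), and that of DIC1, which moved alike and may share its reads, 3.58 ± 0.59 (SE, adjusted p = 0.000108). PPT2, a PEP and phosphate exchanger of the plastid, had 4.93, 7.39 and 3.03 CPM at EN and 8.09, 10.3 and 9.26 CPM at ED in CAM, against 99.5, 63.6 and 46.1 CPM at EN and 15.6, 10.8 and 11.1 CPM at ED in reC3. It fell over the night in CAM and rose in reC3, for an interaction of -3.29 ± 0.39 (SE, adjusted p = 2.59e-06).

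Among the other transporters, PPT1 had an interaction of -1.41 ± 0.34 (SE, adjusted p = 0.00262), which was -0.85 (adjusted p = 0.00353) without reC3 EN replicate 1. DIT1, the plastid oxoglutarate and malate exchanger, was at -1.75 ± 0.55 (SE, adjusted p = 0.0164) but was not called without reC3 EN replicate 1 (-1.25, adjusted p = 0.0715). GPT2, a glucose phosphate transporter of the plastid, was at 2.04 ± 0.73 (SE, adjusted p = 0.0357), a call that was lost without CAM ED replicates 1, 2 and 3, CAM EN replicates 1 and 3, reC3 ED replicate 3 or reC3 EN replicates 1 and 3 (1.74 to 2.12, adjusted p = 0.0511 to 0.0988). The tonoplast dicarboxylate transporter TDT had 2.39, 2.99 and 6.25 CPM at EN and 6.82, 8.08 and 1.07 CPM at ED in CAM, against 0, 0 and 0 CPM at EN and 0, 0 and 0 CPM at ED in reC3. In reC3 the absence of counts allows up to 0.177 CPM at EN and 0.13 CPM at ED (3 counts over a group), and no interaction can be read. The malate channels ALMT4 (0.31, adjusted p = 0.376), ALMT6 (0.38, adjusted p = 0.161) and ALMT9 (0.35, adjusted p = 0.464), the pyruvate carrier BASS2 (-0.30, adjusted p = 0.615) and GPT1 (1.65, adjusted p = 0.0635) were not called. With scaling by totals alone ALMT4, ALMT6 and GPT1 were positive calls. GPT1 was a positive call in DESeq2 as well (adjusted p = 0.0271).

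Malate dehydrogenases, which reduce oxaloacetate to malate, showed 2 negative calls among 5 tested. NADP-MDH of the chloroplast rose over the night in both modes and less in CAM, at -1.19 ± 0.25 (SE, adjusted p = 0.000769). The plastid NAD-dependent enzyme pdNAD-MDH fell over the night in CAM only, at -2.05 ± 0.39 (SE, adjusted p = 0.000373). The cytosolic cMDH1 (0.18, adjusted p = 0.564) and cMDH3 (-0.62, adjusted p = 0.617) and the mitochondrial mMDH1 (-0.21, adjusted p = 0.555) were not called. NADP-MDH was not called with totals alone, and cMDH1 was a positive call. Of 11 vacuolar proton pump genes, VHA-B2 (0.67, adjusted p = 0.0158) and VHA-B3 (0.79, adjusted p = 0.00288), B subunits of the ATPase, were positive calls and none was negative, 18.2% called, and totals alone gave 6 positive calls.

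**Figure D4:**
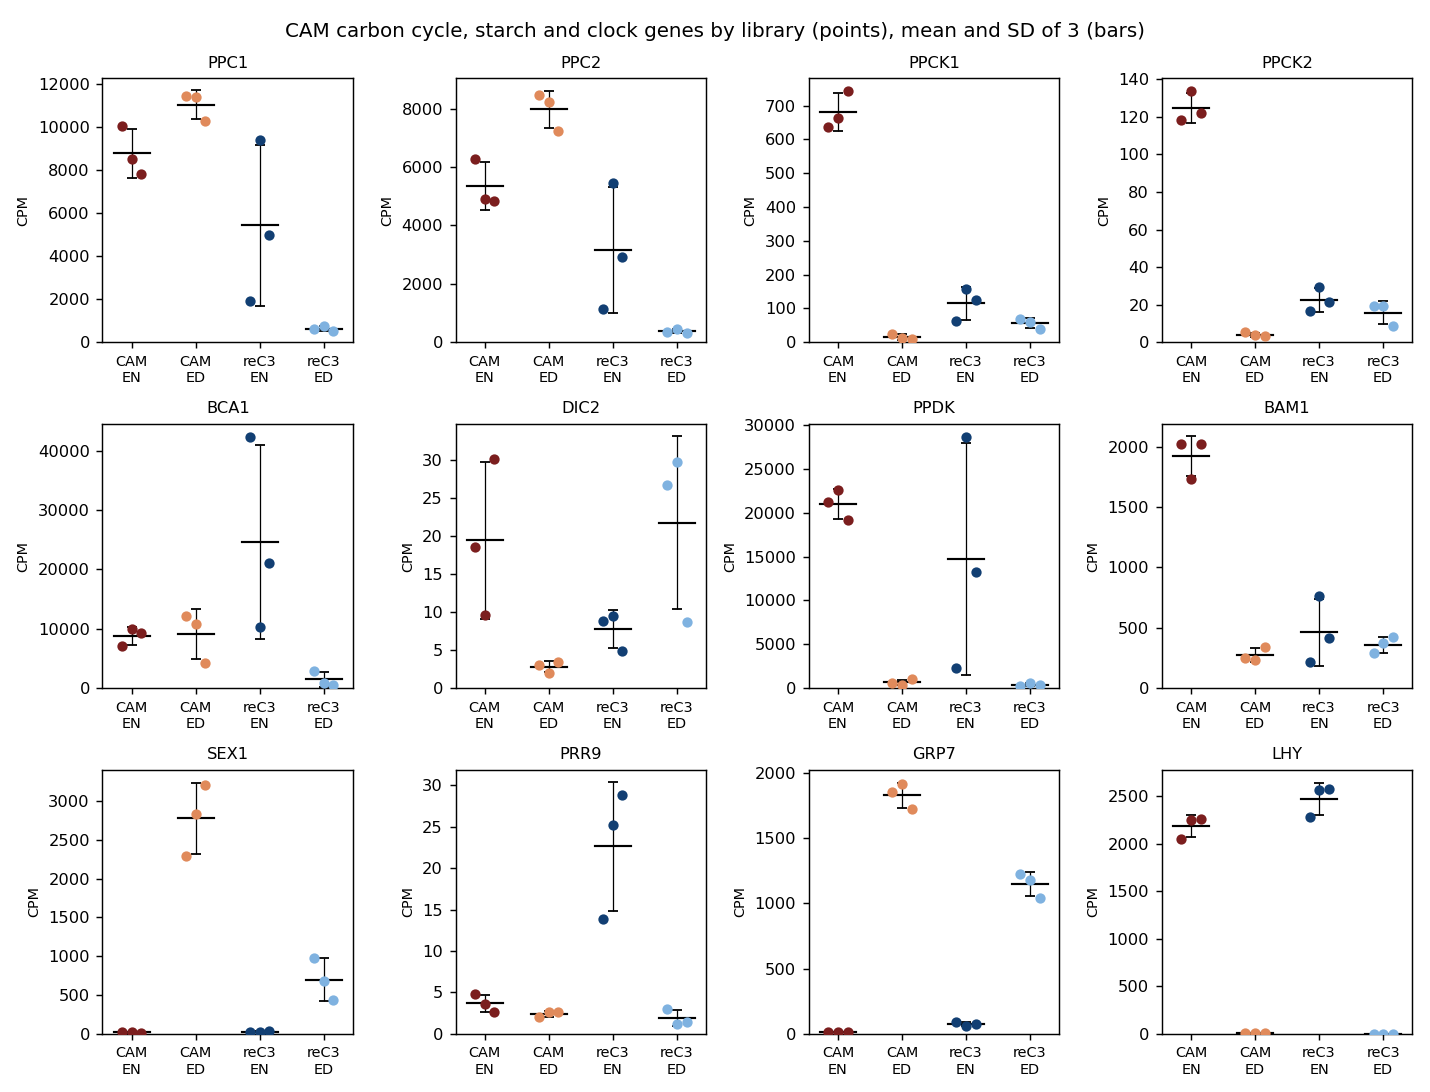
Levels in CPM (vertical axes) of 12 CAM carbon cycle, starch and clock genes in CAM EN, CAM ED, reC3 EN and reC3 ED leaves, from left to right in each panel. Points are the 3 libraries of a group, and bars give the mean and SD; PPCK1 and PPCK2 are high in CAM EN alone, PPC1 and PPC2 are lowest in reC3 ED, and SEX1 and GRP7 fall over the night in both modes.

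Starch degradation genes were counted by role, with no test between roles. The amylase and debranching genes had 7 positive and 2 negative calls among 14, while phosphorylation and maltose and glucose genes had 4 negative and no positive calls among 11. Over the list of 25 this made 13 calls, or 52.0%, with a median of 0.33. The median was 0.15 without CAM EN replicate 2 and 0.16 without reC3 EN replicate 1. Scaling by totals alone gave 11 positive and 3 negative calls, with BAM3, BAM7, BAM8 and PHS2 among the positive and without calls for MEX1, PWD and AMY2. DESeq2 gave 10 positive and 6 negative calls, with AMY1, BAM3 and PHS2 among the positive. BAM1, a chloroplast beta-amylase, had 2021, 1731 and 2024 CPM at EN and 250.1, 229 and 342 CPM at ED in CAM, against 214, 763 and 412 CPM at EN and 288, 371 and 419.9 CPM at ED in reC3. All 3 CAM EN libraries stood above every other library, and the interaction was 2.45 ± 0.46 (SE, adjusted p = 0.000299). BAM9, a beta-amylase without known catalytic activity, had 4564, 3999 and 4644 CPM at EN and 45.7, 42.3 and 46.8 CPM at ED in CAM, against 1276, 999.8 and 1326 CPM at EN and 45.8, 53.1 and 48.1 CPM at ED in reC3. It rose over the night in both modes, further in CAM, for an interaction of 2.00 ± 0.22 (SE, adjusted p = 1.37e-06).

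Other amylases lost a fall over the night. BAM2, a beta-amylase, had swings of 0.18 in CAM and -1.85 in reC3 and an interaction of 2.02 ± 0.27 (SE, adjusted p = 9.99e-06). AMY3, the plastid alpha-amylase, had 653, 544 and 725 CPM at EN and 602, 660.0 and 588 CPM at ED in CAM, against 60.5, 117 and 99.7 CPM at EN and 272, 265 and 206 CPM at ED in reC3. The CAM groups overlapped and the reC3 groups did not, for an interaction of 1.48 ± 0.32 (SE, adjusted p = 0.001). BAM5 followed BAM6, with which it may share reads, at 3.66 ± 0.87 (SE, adjusted p = 0.00281). BAM4 was at 0.81 ± 0.26 (SE, adjusted p = 0.0207) but not called without reC3 ED replicate 3 or reC3 EN replicate 1 (0.67 to 0.69, adjusted p = 0.0524 to 0.0653). AMY2 was at -1.14 ± 0.44 (SE, adjusted p = 0.0479), a call lost without CAM ED replicates 1, 2 and 3, CAM EN replicates 1, 2 and 3, reC3 ED replicates 1, 2 and 3 or reC3 EN replicates 2 and 3 (-1.24 to -0.82, adjusted p = 0.0577 to 0.15). AMY1, an alpha-amylase, had 16.001, 11.5 and 10.8 CPM at EN and 0, 0.357 and 0.134 CPM at ED in CAM, against 0, 0 and 0.166 CPM at EN and 0, 0 and 0.163 CPM at ED in reC3, with 1 count over each reC3 group, and its interaction was not called at adjusted p = 0.408. BAM3 (1.59, adjusted p = 0.0622), BAM7 (0.33, adjusted p = 0.234), BAM8 (0.47, adjusted p = 0.135) and the debranching enzyme ISA3 (0.34, adjusted p = 0.435) were not called.

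SEX1, the glucan water dikinase that opens starch granules to attack, had 17.8, 16.2 and 14.01 CPM at EN and 2299, 2835 and 3211 CPM at ED in CAM, against 27.1, 23.2 and 30.8 CPM at EN and 981, 676 and 434 CPM at ED in reC3. It was low at EN in both modes and higher at ED in CAM than in reC3, for an interaction of -2.75 ± 0.33 (SE, adjusted p = 3.92e-06). DPE1, a glucanotransferase of the plastid, had 12.7, 12.9 and 9.65 CPM at EN and 211, 213 and 227 CPM at ED in CAM, against 69.0, 30.3 and 32.8 CPM at EN and 148, 124 and 94.97 CPM at ED in reC3. Its fall was wider in CAM, with an interaction of -2.72 ± 0.33 (SE, adjusted p = 4.06e-06). LDA, a debranching limit dextrinase, gained a fall at -1.53 ± 0.31 (SE, adjusted p = 0.000609). MEX1, the maltose exporter, was at -0.9995 ± 0.29 (SE, adjusted p = 0.00924), and at -0.60 (adjusted p = 0.037) without reC3 EN replicate 1. PWD, a phosphoglucan water dikinase, was at -1.20 ± 0.41 (SE, adjusted p = 0.0243) and not called without CAM EN replicates 1 and 3, reC3 ED replicates 2 and 3 or reC3 EN replicate 1 (-1.17 to -0.63, adjusted p = 0.0503 to 0.123). The phosphatases SEX4 (-0.42, adjusted p = 0.39), LSF1 (-0.18, adjusted p = 0.754) and LSF2 (-0.13, adjusted p = 0.779), the phosphorylases PHS1 (-0.79, adjusted p = 0.0879) and PHS2 (1.08, adjusted p = 0.068), DPE2 (-0.44, adjusted p = 0.15) and the glucose transporter pGlcT (-0.15, adjusted p = 0.632) were not called.

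Starch synthesis had 6 negative and no positive calls among 16 (37.5% called, near the 36.2% of all genes), with a median of -0.38. Scaling by totals alone gave a median of 0.11, with 3 positive and 2 negative calls and none for PGM1 and SBE2.1. The negative count was 3 without CAM EN replicate 3, and the positive count 1 without reC3 ED replicate 2, reC3 ED replicate 3 or reC3 EN replicate 1 and 2 without reC3 EN replicate 2. APS1, the small subunit of ADP-glucose pyrophosphorylase, had 500.2, 490.0 and 575 CPM at EN and 604, 582 and 657 CPM at ED in CAM, against 857, 865 and 904 CPM at EN and 354, 311 and 305 CPM at ED in reC3. Only reC3 rose over the night, for an interaction of -1.67 ± 0.21 (SE, adjusted p = 6.48e-06). The large subunit APL1 followed at -1.64 ± 0.33 (SE, adjusted p = 0.000575). The plastid phosphoglucomutase PGM1 was at -1.23 ± 0.28 (SE, adjusted p = 0.00188), and the branching enzyme SBE2.1 at -0.82 ± 0.26 (SE, adjusted p = 0.0169) but not called without CAM EN replicate 3 (-0.71, adjusted p = 0.0515).

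Cytosolic glycolysis had 7 negative and no positive calls among 12, or 58.3%, with a median of -0.81. Scaling by totals alone gave 2 positive and 4 negative calls and a median of -0.23. GAPC1, a cytosolic glyceraldehyde-phosphate dehydrogenase, had 324, 296 and 325 CPM at EN and 664, 678 and 613 CPM at ED in CAM, against 1723, 1011 and 984 CPM at EN and 584, 642 and 583 CPM at ED in reC3. The fall in CAM and the rise in reC3 were both free of overlap, and the interaction was -2.09 ± 0.28 (SE, adjusted p = 9.61e-06). GAPC2, which may share its reads, was at -1.998 ± 0.28 (SE, adjusted p = 1.75e-05). The phosphoglycerate kinase PGK3 (-2.18 ± 0.42 (SE, adjusted p = 0.000398)) and the triose-phosphate isomerase CTIMC (-1.57 ± 0.29 (SE, adjusted p = 0.000282)) lost their rise. The positive count was 1 without reC3 EN replicate 2.

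Sucrose and sugar transport genes had 5 positive and 5 negative calls among 16 (62.5%). The split was 8 and 0 with scaling by totals alone, where TMT1 was not called, and 6 and 3 with RLE scaling. SUS4, a sucrose synthase, had 1210.4, 593 and 954 CPM at EN and 92.9, 77.4 and 50.1 CPM at ED in CAM, against 90.8, 87.4 and 103 CPM at EN and 91.3, 78.8 and 74.2 CPM at ED in reC3. Its level was high in CAM EN alone, for an interaction of 3.44 ± 0.60 (SE, adjusted p = 0.000212). CINV1, a cytosolic invertase, had 56.5, 36.8 and 63.0 CPM at EN and 35.6, 34.8 and 37.3 CPM at ED in CAM, against 14.9, 18.4 and 13.1 CPM at EN and 66.1, 66.8 and 73.6 CPM at ED in reC3. It fell over the night in reC3 without overlap and rose in CAM, where EN and ED overlapped, and the interaction was 2.69 ± 0.27 (SE, adjusted p = 2.83e-07). The sugar exporter SWEET11 was at 1.06 ± 0.29 (SE, adjusted p = 0.00663) and the tonoplast sugar carrier TMT1 at -0.83 ± 0.23 (SE, adjusted p = 0.00728). The negative count was 3 without CAM ED replicate 2, reC3 ED replicate 2 or reC3 ED replicate 3, and 2 without CAM ED replicate 3, CAM EN replicate 3 or reC3 EN replicate 3.

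In the circadian clock 4 of 5 pseudo-response regulators, repressors that act in sequence through the day, differed in swing, against 7 of the other 25 genes. That split by role was not tested. Of 30 tested members 2 were positive and 9 negative calls, 36.7% in all, near the 36.2% of all genes, with a median of -0.59. Scaling by totals alone gave 3 positive and 4 negative calls and a median of -0.11, with no call for LHY, LNK1, ELF3, ZTL or CDF3 and a positive call for CO. LHY, the morning repressor, had 2053, 2249.9 and 2259 CPM at EN and 3.41, 2.97 and 2.55 CPM at ED in CAM, against 2278, 2571 and 2575 CPM at EN and 1.92, 2.32 and 1.63 CPM at ED in reC3. The CAM and reC3 swings were 9.51 in CAM and 10.28 in reC3, and the small interaction of -0.76 ± 0.29 (SE, adjusted p = 0.0464) was not called without CAM ED replicates 1 and 2, CAM EN replicates 1, 2 and 3, reC3 ED replicates 1 and 3 or reC3 EN replicates 2 and 3 (-0.79 to -0.66, adjusted p = 0.0536 to 0.12). DESeq2 did not call LHY either (adjusted p = 0.0794). CCA1, the partner of LHY, had swings of 9.51 in CAM and 9.83 in reC3 and an interaction of -0.32, adjusted p = 0.64. GI, an evening gene, had swings of -8.25 in CAM and -7.84 in reC3 and an interaction of -0.41, adjusted p = 0.423.

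PRR9 had 4.79, 3.56 and 2.65 CPM at EN and 2.02, 2.61 and 2.68 CPM at ED in CAM, against 13.9, 25.2 and 28.8 CPM at EN and 3.01, 1.16 and 1.47 CPM at ED in reC3. It lost its rise over the night, which only reC3 showed, for an interaction of -2.96 ± 0.53 (SE, adjusted p = 0.000206). PRR5 had 4.34, 3.70 and 4.16 CPM at EN and 37.8, 39.1 and 37.2 CPM at ED in CAM, against 11.1, 15.6 and 22.1 CPM at EN and 25.9, 16.6 and 18.1 CPM at ED in reC3. In reC3 the EN and ED libraries overlapped, in CAM EN was far lower, and the interaction was -2.91 ± 0.45 (SE, adjusted p = 4.9e-05). PRR3 behaved like PRR5, at -2.74 ± 0.34 (SE, adjusted p = 4.26e-06). TOC1, the evening member of the family, was at 0.52 ± 0.18 (SE, adjusted p = 0.028) but not called without CAM ED replicates 1 and 3, CAM EN replicate 2, reC3 ED replicate 1 or reC3 EN replicate 1 (0.43 to 0.50, adjusted p = 0.0567 to 0.0791). PRR7 was not called (-1.14, adjusted p = 0.086).

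GRP7, a clock-controlled RNA-binding protein, had 14.95, 15.1 and 10.4 CPM at EN and 1854, 1914 and 1723 CPM at ED in CAM, against 91.7, 58.3 and 71.6 CPM at EN and 1223, 1177 and 1044 CPM at ED in reC3. Both modes fell over the night, CAM further, for an interaction of -3.12 ± 0.29 (SE, adjusted p = 1.3e-07). ZTL, an evening F-box photoreceptor, was at -0.82 ± 0.17 (SE, adjusted p = 0.00065). CDF3, a DOF factor, was at -1.14 ± 0.31 (SE, adjusted p = 0.00639). RVE8, a morning activator, was at 0.74 ± 0.24 (SE, adjusted p = 0.021), lost without CAM ED replicate 2, CAM EN replicate 3 or reC3 ED replicate 3 (0.51 to 0.69, adjusted p = 0.0504 to 0.0996). Its partner LNK1 was at -1.71 ± 0.50 (SE, adjusted p = 0.0109) and not called without reC3 EN replicate 2 (-0.94, adjusted p = 0.0991). ELF3, of the evening complex, was at -0.74 ± 0.27 (SE, adjusted p = 0.0349), lost without CAM ED replicates 2 and 3, CAM EN replicate 3, reC3 ED replicates 2 and 3 or reC3 EN replicate 1 (-0.77 to -0.58, adjusted p = 0.0505 to 0.101). The positive count of 2 became 1 without any 1 of 8 libraries, which were the 3 of CAM ED, CAM EN replicates 2 and 3, reC3 ED replicates 1 and 3, and reC3 EN replicate 1.

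Of the other clock genes none was called: RVE3 (-0.09, adjusted p = 0.902), RVE6 (0.14, adjusted p = 0.652), LNK2 (-0.69, adjusted p = 0.357), LNK3 (-0.94, adjusted p = 0.259), LUX (0.15, adjusted p = 0.768), FKF1 (-0.85, adjusted p = 0.135), LKP2 (-0.75, adjusted p = 0.118), CHE (-0.37, adjusted p = 0.455), CDF2 (-0.50, adjusted p = 0.131), CO (1.28, adjusted p = 0.0768), COL2 (0.43, adjusted p = 0.516) and COL9 (-0.35, adjusted p = 0.264). RVE1, RVE2, RVE7 and ELF4 held 3 counts or fewer in at least 1 of the 4 groups. RVE1 had 49.3, 55.7 and 37.1 CPM at EN and 0.126, 0.119 and 0 CPM at ED in CAM, against 42.7, 39.2 and 42.9 CPM at EN and 0.120, 0.116 and 0 CPM at ED in reC3. RVE2 had 43.1, 42.4 and 29.3 CPM at EN and 0.379, 0.119 and 0 CPM at ED in CAM, against 39.7, 38.8 and 39.6 CPM at EN and 0, 0.116 and 0.163 CPM at ED in reC3. Both were near 0 at ED in either mode.

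Light signalling had 1 positive and 4 negative calls among 10 (50.0%), with a median of -0.41, and 0.11 with scaling by totals alone, which gave 2 positive and 1 negative call and none for PHYA, HY5 and SPA1. PIF7, a phytochrome-interacting factor, had 10.9, 17.5 and 10.03 CPM at EN and 6.44, 5.94 and 5.77 CPM at ED in CAM, against 41.2, 36.2 and 42.6 CPM at EN and 5.77, 5.90 and 4.41 CPM at ED in reC3. Its rise was far smaller in CAM, for an interaction of -1.79 ± 0.27 (SE, adjusted p = 3.61e-05). The phytochrome PHYA was at -0.74 ± 0.18 (SE, adjusted p = 0.00254). HY5, a light-activated factor, was at -0.99 ± 0.36 (SE, adjusted p = 0.0356), lost without CAM ED replicate 3, CAM EN replicate 2, reC3 ED replicates 1 and 2 or reC3 EN replicates 1 and 2 (-0.97 to -0.77, adjusted p = 0.0548 to 0.0984). SPA1, a repressor of light signalling, was at -1.33 ± 0.45 (SE, adjusted p = 0.027), lost without CAM ED replicates 2 and 3, CAM EN replicate 1, reC3 ED replicate 3 or reC3 EN replicate 3 (-1.29 to -1.13, adjusted p = 0.0553 to 0.0723). The negative count was 2 without CAM ED replicate 3. The blue light receptor CRY1, named after its value was seen, was the positive call (0.54, adjusted p = 0.0469). The positive count was 0 without CAM EN replicate 1 or 2, CAM ED replicate 1 or 3, reC3 EN replicate 1, or reC3 ED replicate 1 or 2, and 2 without reC3 EN replicate 2 or 3.

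Genes of the light reactions formed the group with the most negative calls: 34 of 39 tested, or 87.2%, against 0 positive. The median interaction was -2.33, made up of a median swing of -0.24 in CAM and 1.85 in reC3. Of the calls 16 were lost, 8 reversed, 6 gained and 4 smaller swings. All 3 reC3 EN libraries exceeded all other libraries in the summed level of these genes, which was 28696 to 36629 CPM at EN and 32837 to 40800 CPM at ED in CAM, against 57647 to 137167 CPM at EN and 15872 to 28579 CPM at ED in reC3. Without reC3 EN replicate 1, where the genes were highest, 26 were negative and 0 positive calls, the median was -1.69, and 33.1% of all genes were called.

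**Figure D5:**
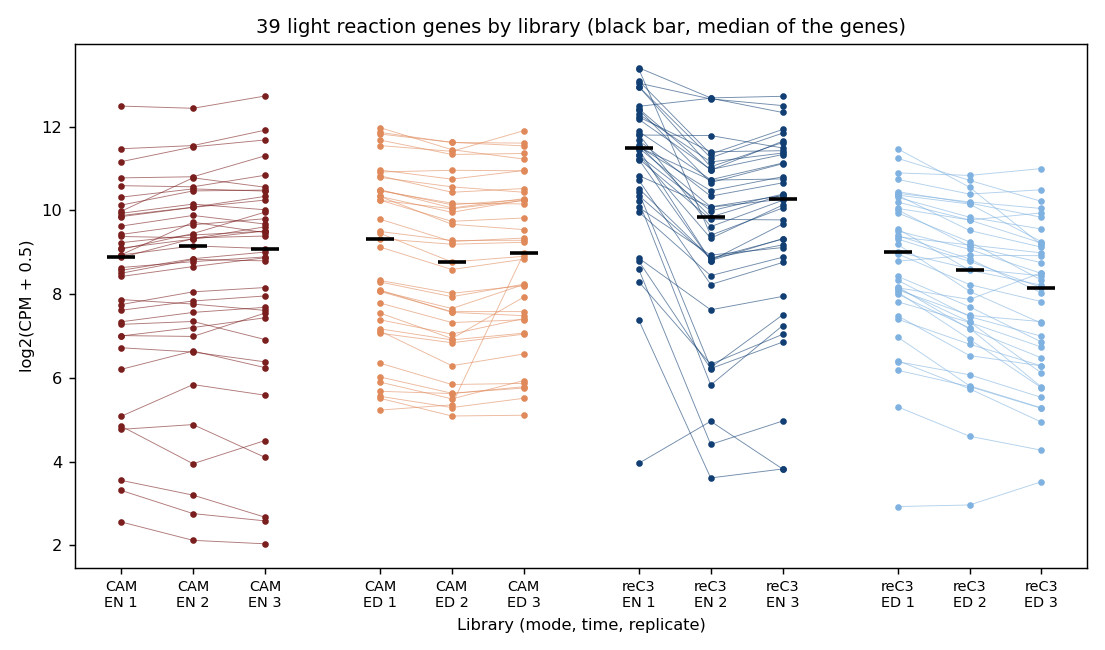
Levels of the 39 light reaction genes, as log2(CPM + 0.5) on the vertical axis, in each of the 12 libraries along the horizontal axis, ordered CAM EN, CAM ED, reC3 EN and reC3 ED. Thin lines join a gene's replicates and black bars mark the median gene, which is 11.49 in reC3 EN replicate 1, 9.84 in replicate 2 and 10.27 in replicate 3, above its level in all libraries of the other groups.

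PSBP1, an extrinsic subunit of photosystem II, had 1542, 1513 and 1832 CPM at EN and 3726, 3157 and 3119.9 CPM at ED in CAM, against 7956, 2452 and 3681 CPM at EN and 1318, 734 and 556 CPM at ED in reC3. It fell over the night in CAM and rose in reC3, without overlap in either mode, for an interaction of -3.47 ± 0.59 (SE, adjusted p = 0.000135). PSAH2, a subunit of photosystem I, had 379, 459.7 and 513 CPM at EN and 1444, 1065 and 1244 CPM at ED in CAM, against 2879, 1087 and 1308 CPM at EN and 729, 537 and 359.8 CPM at ED in reC3. It also reversed, at -3.17 ± 0.53 (SE, adjusted p = 0.000104), as did PSBY, a small subunit of photosystem II, at -2.55 ± 0.46 (SE, adjusted p = 0.000217). PSBS, which starts the safe release of excess light energy, had 490.4, 842 and 709 CPM at EN and 187, 122 and 243 CPM at ED in CAM, against 5740.1, 6562 and 5182 CPM at EN and 284, 234 and 365 CPM at ED in reC3. Here reC3 EN replicate 1 lay between its partners, both modes rose, and the interaction was -2.42 ± 0.40 (SE, adjusted p = 9.45e-05). The 14 antenna genes had 12 negative calls and a median of -3.18, against 22 of 25 and -1.97 in the photosystem and electron transport genes.

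The Calvin-Benson cycle, which fixes CO2 in the chloroplast by day, had 14 negative and no positive calls among 16 (87.5%), with a median of -2.24. RCA, the rubisco activase, had 49735, 56523 and 60959 CPM at EN and 9865, 7459 and 6390.5 CPM at ED in CAM, against 67457, 69936 and 68458 CPM at EN and 2399, 1543 and 1637 CPM at ED in reC3. The rise was steeper in reC3, where ED was lower than in CAM, and the interaction was -2.39 ± 0.44 (SE, adjusted p = 0.000269). FBA1, a plastid aldolase, had 15008, 20071 and 19590.4 CPM at EN and 7136, 5829 and 4280.4 CPM at ED in CAM, against 29958, 27378 and 27199 CPM at EN and 2142, 1514 and 1869.8 CPM at ED in reC3. Its interaction was -2.27 ± 0.36 (SE, adjusted p = 7.14e-05). The triose-phosphate isomerase PDTPI (-3.05 ± 0.49 (SE, adjusted p = 8.6e-05)) and the transketolase TKL2 (-2.42 ± 0.43 (SE, adjusted p = 0.000182)) lost their rise. Without reC3 EN replicate 1 there were 13 negative calls.

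Photorespiration genes, which recycle the product of rubisco's reaction with oxygen, had 11 negative and 1 positive call among 16 (75.0%), with a median of -1.36. AGT1, a peroxisomal aminotransferase, had 8932, 10766 and 12338 CPM at EN and 1257, 1031 and 1049 CPM at ED in CAM, against 8963, 7830.0 and 8722 CPM at EN and 329.5, 178 and 249 CPM at ED in reC3. It rose over the night in both modes and less in CAM, at -1.81 ± 0.37 (SE, adjusted p = 0.000624). The aminotransferase GGT1 was at -1.81 ± 0.36 (SE, adjusted p = 0.000523), the ferredoxin-dependent glutamate synthase GLU1 at -1.83 ± 0.35 (SE, adjusted p = 0.000394) and the serine hydroxymethyltransferase SHM1 at -1.57 ± 0.30 (SE, adjusted p = 0.000436). The 1 positive call, named for that after its value was seen, was the mitochondrial carrier BOU, at 2.796 ± 0.57 (SE, adjusted p = 0.000805).

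Chlorophyll synthesis had 9 negative and no positive calls among 11 (81.8%), with a median of -2.39. Replicate 1 of reC3 EN was the highest of its group for all 11 genes. Without it the median was -1.72, with 9 negative calls. PORB, a light-dependent protochlorophyllide reductase, had 31.4, 25.6 and 24.6 CPM at EN and 166, 159 and 199 CPM at ED in CAM, against 147, 31.9 and 44.8 CPM at EN and 47.0, 30.0 and 21.6 CPM at ED in reC3. Its fall over the night was free of overlap in CAM, and in reC3 EN replicate 1 alone was high. The interaction was -3.85 ± 0.72 (SE, adjusted p = 0.000406), and -2.90 without that library. PORC, which may share its reads, was at -3.77 ± 0.73 (SE, adjusted p = 0.000577). The reductase DVR (-3.31 ± 0.55 (SE, adjusted p = 0.000129)) and the synthase CHLG (-2.39 ± 0.45 (SE, adjusted p = 0.000349)) reversed. The positive count was 1 without CAM ED replicate 3, reC3 ED replicate 2 or 3, or reC3 EN replicate 1. In nitrogen assimilation 2 of 7 were called (28.6%): the nitrite reductase NIR lost its rise, at -2.71 ± 0.55 (SE, adjusted p = 0.000715), and the glutamate dehydrogenase GDH2 reversed to a rise, at 1.86 ± 0.25 (SE, adjusted p = 9.99e-06). The positive count there was 2 without reC3 ED replicate 3.

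Osmoprotectant genes had 9 positive and 2 negative calls among 21 (52.4%), with a median of 0.94, and 1.73 without reC3 EN replicate 2. There were 14 positive calls with totals alone. Beside ProDH1, P5CS1, which starts the synthesis of proline, had 1344, 1655 and 2146 CPM at EN and 33.0, 36.5 and 30.9 CPM at ED in CAM, against 451, 223 and 367 CPM at EN and 52.6, 53.2 and 52.1 CPM at ED in reC3. It rose over the night in both modes, further in CAM, with an interaction of 2.96 ± 0.36 (SE, adjusted p = 4.03e-06). TPS5, a trehalose-phosphate synthase-like protein, had 79.7, 76.6 and 67.2 CPM at EN and 23.2, 31.5 and 29.0 CPM at ED in CAM, against 38.7, 43.2 and 43.9 CPM at EN and 99.2, 95.04 and 124 CPM at ED in reC3. The swing reversed without overlap, at 2.75 ± 0.31 (SE, adjusted p = 1.65e-06). DIN10, related to raffinose synthases, fell less in CAM, at 2.94 ± 0.52 (SE, adjusted p = 0.000212). The 2 negative calls, named after their values were seen, were the inositol-phosphate synthases MIPS2 (-2.07, adjusted p = 0.00106) and MIPS3 (-2.17, adjusted p = 0.00109), which may share reads.

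Abscisic acid (ABA), the hormone of water shortage, had 14 positive and 4 negative calls among 28 genes of its metabolism and signalling (64.3%), with a median of 0.79, and 16 and 2 with scaling by totals alone. The phosphatases, kinases and factors of its signalling chain had 11 positive and no negative calls among 13. PP2CA, a phosphatase that damps the signal, had 645, 715 and 671 CPM at EN and 188, 151 and 207 CPM at ED in CAM, against 78.6, 208 and 174 CPM at EN and 126, 178 and 164 CPM at ED in reC3. CAM EN stood above every other library, at 1.92 ± 0.34 (SE, adjusted p = 0.000203). SNRK2.2, a kinase that carries the signal, had 615, 488 and 561 CPM at EN and 235, 225 and 194 CPM at ED in CAM, against 141, 184 and 175 CPM at EN and 184, 192 and 203 CPM at ED in reC3. CAM EN again stood above every other library, at 1.56 ± 0.22 (SE, adjusted p = 1.71e-05).

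All 4 negative ABA calls were in metabolism. CYP707A4, an ABA hydroxylase that breaks ABA down, had 2.69, 1.85 and 1.33 CPM at EN and 1.77, 1.43 and 1.07 CPM at ED in CAM, against 16.9, 10.5 and 20.6 CPM at EN and 1.92, 1.74 and 1.63 CPM at ED in reC3. It rose over the night in reC3 only, at -2.69 ± 0.50 (SE, adjusted p = 0.000309). ABA1, the zeaxanthin epoxidase early in ABA synthesis, rose less in CAM, at -1.72 ± 0.38 (SE, adjusted p = 0.00118). The negative count was 2 without CAM EN replicate 2 or 3, reC3 ED replicate 2, or reC3 EN replicate 1.

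Dehydration response genes had 4 positive and no negative calls among 8 (50.0%), with a median of 1.58. ERD15, an early dehydration protein, had 322, 339 and 377 CPM at EN and 352, 335 and 332 CPM at ED in CAM, against 36.5, 89.3 and 39.1 CPM at EN and 204, 223 and 229.8 CPM at ED in reC3. The CAM groups overlapped while reC3 fell over the night, for an interaction of 2.02 ± 0.33 (SE, adjusted p = 9.93e-05). RD26, a NAC factor, also lost its fall, at 3.27 ± 0.62 (SE, adjusted p = 0.000417). The dehydrin COR47 gained a rise at 2.59 ± 0.51 (SE, adjusted p = 0.000593), and the caleosin RD20 fell less, at 1.85 ± 0.43 (SE, adjusted p = 0.00207). Heat shock and chaperone genes had 3 positive and no negative calls among 11 (27.3%), and 5 positive calls with scaling by totals alone. BIP2, a chaperone of the endoplasmic reticulum, lost its fall, at 2.31 ± 0.44 (SE, adjusted p = 0.000401), and the heat shock factors HSFA2 and HSFA1A were at 1.52 ± 0.46 (SE, adjusted p = 0.0133) and 1.23 ± 0.40 (SE, adjusted p = 0.0208). HSFA1A was not called without CAM EN replicate 2 (0.85, adjusted p = 0.0816). The positive count was 6 without reC3 EN replicate 2.

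Aquaporins, the water channels, had 2 positive and 3 negative calls among 12 (41.7%), with a median of -0.89. The median changed sign to 0.72 without reC3 EN replicate 1 and was -1.34 without reC3 EN replicate 2. It was -0.25 with scaling by totals alone, which gave 4 positive calls. PIP2.2, of the plasma membrane, had 344, 323 and 279.8 CPM at EN and 55.0, 53.0 and 38.8 CPM at ED in CAM, against 2485, 768 and 1344 CPM at EN and 32.5, 25.1 and 22.2 CPM at ED in reC3. Both modes rose over the night without overlap, reC3 more steeply, for an interaction of -3.16 ± 0.48 (SE, adjusted p = 4.47e-05). PIP2.6 was at -1.69 ± 0.38 (SE, adjusted p = 0.00157) and PIP2.4 at -1.43 ± 0.42 (SE, adjusted p = 0.0109). Without reC3 EN replicate 1 PIP2.4 was at -0.95 (adjusted p = 0.045). PIP1.5 was at 0.83 ± 0.27 (SE, adjusted p = 0.018), not called without CAM ED replicate 2 (0.74, adjusted p = 0.0521). Reads may be shared in this family. The positive count was 5 without reC3 EN replicate 1, 1 without CAM ED replicate 1, CAM EN replicate 1 or 3, or reC3 ED replicate 3, and 0 without CAM ED replicate 2.

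Senescence and chlorophyll breakdown had 2 positive and 3 negative calls among 8 (62.5%), with a median of -0.41, and 0.13 with scaling by totals alone, which gave 1 negative call and none for PAO. NAP, a NAC factor of leaf senescence, had 1727, 1318 and 1766 CPM at EN and 44.1, 50.3 and 54.6 CPM at ED in CAM, against 7.71, 94.1 and 51.3 CPM at EN and 18.9, 40.6 and 34.7 CPM at ED in reC3. CAM EN stood far above all other libraries, for an interaction of 4.31 ± 0.85 (SE, adjusted p = 0.000699). The pheophytinase PPH was at 1.395 ± 0.45 (SE, adjusted p = 0.0186), not called without CAM ED replicate 1 (1.22, adjusted p = 0.052). The pheophorbide oxygenase PAO was at -0.68 ± 0.18 (SE, adjusted p = 0.00474), and NOL, a chlorophyll b reductase, reversed to a fall at -2.22 ± 0.33 (SE, adjusted p = 3.3e-05). The positive count was 1 without CAM ED replicate 1.

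Wax and cutin genes had 8 negative and no positive calls among 17 (47.1%), with a median of -1.38. There were 5 negative calls without CAM EN replicate 3 and 4 with scaling by totals alone, and the median was -0.84 without CAM ED replicate 3. CER3, of alkane synthesis, had 56.8, 36.4 and 44.3 CPM at EN and 102, 90.4 and 71.7 CPM at ED in CAM, against 53.4, 30.5 and 26.0 CPM at EN and 12.5, 18.5 and 19.9 CPM at ED in reC3. It fell over the night in CAM and rose in reC3, at -2.05 ± 0.36 (SE, adjusted p = 0.000158). The wax exporter ABCG12 (-1.71 ± 0.35 (SE, adjusted p = 0.000776)) and the acyl-CoA synthetase LACS1 (-1.66 ± 0.35 (SE, adjusted p = 0.000911)) gained a fall. KCS2, which lengthens fatty acids, was at -1.98 ± 0.54 (SE, adjusted p = 0.00742), and at -1.11 (adjusted p = 0.0232) without reC3 EN replicate 1. Of 7 cell wall growth genes 1 was called (14.3%), the cellulose synthase CESA5 at -0.96 ± 0.27 (SE, adjusted p = 0.00808), not called with scaling by totals alone. The positive count of 0 became 1 without reC3 EN replicate 1, and the negative count 2 without reC3 EN replicate 2.

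Markers of other leaf cell types were read beside these groups. Of 9 vascular markers 6 were negative calls (66.7%), and 4 with scaling by totals alone, with a median of -1.81. Besides LAC17, the cellulose synthases of secondary walls IRX1 (-2.24 ± 0.35 (SE, adjusted p = 5.74e-05)), IRX3 (-2.14 ± 0.25 (SE, adjusted p = 3.07e-06)) and IRX5 (-1.81 ± 0.25 (SE, adjusted p = 1.37e-05)) gained a fall. The summed vascular level was 202 to 230.4 CPM at EN and 255 to 340.3 CPM at ED in CAM, against 497 to 759.7 CPM at EN and 446 to 537 CPM at ED in reC3. None of the 8 guard cell markers was called in edgeR's test or in DESeq2, and 2 had an unadjusted p under 0.05 in edgeR's test. Scaling by totals alone gave 2 positive calls, and 2 were negative calls without reC3 EN replicate 2 and 1 without CAM ED replicate 3, CAM EN replicate 2 or reC3 ED replicate 1. Their summed level was 204 to 236 CPM at EN and 36.2 to 43.7 CPM at ED in CAM, against 158 to 166 CPM at EN and 50.9 to 62.3 CPM at ED in reC3, higher at EN in both modes.

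Epidermis markers had 2 positive and 1 negative call among 5 (60.0%): ANL2 (0.62 ± 0.15 (SE, adjusted p = 0.00351)), GL2 (1.65 ± 0.29 (SE, adjusted p = 0.000162)) and LACS2 (-2.20 ± 0.34 (SE, adjusted p = 4.7e-05)). Their summed level was 560.3 to 614 CPM at EN and 363 to 413 CPM at ED in CAM, against 859 to 908 CPM at EN and 541 to 635 CPM at ED in reC3. Of 10 markers of dividing cells 1 was called (10%), PCNA1 at 1.16 ± 0.40 (SE, adjusted p = 0.0285), not called without CAM ED replicate 3, CAM EN replicate 3, reC3 ED replicate 2 or reC3 EN replicate 3 (0.98 to 1.09, adjusted p = 0.0602 to 0.0796), and without CAM EN replicate 2 another was a negative call. These 10 summed to 26.9 to 31.7 CPM at EN and 21.6 to 23.1 CPM at ED in CAM, against 29.1 to 93.1 CPM at EN and 35.3 to 61.2 CPM at ED in reC3. Their median interaction was -1.12, opposite in sign to that of PCNA1. DESeq2 gave 1 positive and 2 negative calls, and scaling by totals alone 2 positive and 0 negative. In CAM EN 1 of the 10 had no count. No other marker list had a member at 0 over a group. The part of cell type in the gene groups above was not tested.

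The same difference of swings was taken between the middle of the night and the middle of the day, from the other 12 libraries, which per the labels were taken over from an earlier series. That interaction was called for 3139 genes (22.3%). Both interactions were called for 1543 genes, which is 30.3% of the EN and ED calls and 49.2% of the midnight and midday calls, and 1310 of these had the same sign. The difference between both interactions was itself called for 2393 genes (17%), among them 1665 of the 5090, or 32.7%. As each interaction comes from its own set of libraries, time of day and set cannot be told apart in that difference. ProDH1 had a midnight and midday interaction of 3.26 (adjusted p = 0.00734), and its difference from 8.53 between EN and ED was called (adjusted p = 0.00575). AT1G15380 had -0.46 (adjusted p = 0.597) beside 7.97, a difference that was called (adjusted p = 4.07e-06). AT2G20670 had 4.88 (adjusted p = 8.7e-05) beside 5.30, and that difference was not called (adjusted p = 0.898). Of the genes named by class, 6 had a called midnight and midday interaction of the opposite sign: AT1G21500 (-5.09 between EN and ED, 4.57 (adjusted p = 0.00568) between midnight and midday), AT1G51400 (-4.83 and 3.56 (adjusted p = 0.00299)), AT5G38510 (-3.89 and 2.23 (adjusted p = 0.00457)), ALPHA-VPE (3.89 and -3.05 (adjusted p = 0.02)), AT4G33150 (6.37 and -2.43 (adjusted p = 0.0232)) and ATS1 (3.25 and -1.41 (adjusted p = 0.00658)). The difference between both interactions was called for each of them.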

How the data were processed

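RNA was sequenced from mature leaves with an unstranded kit (single-end reads of 150 bp), per the labels' protocols. The authors deposited raw counts per Arabidopsis gene identifier for 24 libraries. CASAVA 1.8.2 and TAIR10 are named in the submitters' processing notes, and neither an aligner nor a counting rule was given in the sources used here. Another 40 value columns of the table were not used.

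Counts were fitted with edgeR 4.0.16 in R 4.3.3 (TMM scaling, low-count filter by group, robust quasi-likelihood test, Benjamini-Hochberg adjustment over 14065 genes), with 8 group means over all 24 libraries and no block. CPM are scaled by TMM. The members and lists were chosen with earlier results of these data known. Named genes were the 3 with the largest interaction per class and sign, among those called with the same sign whichever of the 12 libraries was left out, at 10 CPM or more in a group and with over 3 counts in every group, up to 2 of each sign with fewer counts by level, up to 4 called genes per list by adjusted p, and the members of the CAM, clock and starch degradation lists. Alternatives were DESeq2 1.42.0, RLE scaling, library totals alone, no filter, adjusted p under 0.01 with a 2-fold difference, the 12 libraries alone, a replicate block, and leaving out each library. A size limit on the uncalled swing of gained and lost genes was a further alternative. The labels call the replicates biological. Floors and intervals cover counting error only.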

Additional observations from a re-analysis of the deposited data

Results flagged for a closer look

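By the test of the difference itself, 5090 genes swung differently in CAM and in reC3 leaves, and 563 of them moved opposite ways in the modes. Of the named reversed genes, the difference of swings was 7.97 for AT1G15380 (swings of 4.65 in CAM and -3.32 in reC3) and 6.37 for AT4G33150 (swings of 2.58 in CAM and -3.79 in reC3). It was 5.30 for AT2G20670, -5.60 for LAC17, -5.02 for LHCA4 and -4.30 for ENODL19, all on the log2 scale. Without reC3 EN replicate 1 the difference was -2.92 for LHCA4 and -2.26 for ENODL19. The rise of ENODL19 in reC3, and with it its reversal, rests on that library. Much of the rise of LHCA4 in reC3 came from it too. The other reC3 EN libraries had 75.3 and 181 CPM of LHCA4, within or near the 125, 55.6 and 38.4 CPM at ED.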

How the results depend on the processing

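With library totals alone there were 4265 positive and 1267 negative calls, with 1073 gained, 1976 lost, 1019 smaller and 55 with neither swing called. At an adjusted p under 0.01 and a 2-fold difference, 2665 genes were called (1190 positive, 1475 negative), of which 1088 gained, 655 lost, 88 reversed, 265 larger, 177 smaller and 392 neither, with 1300 calls between midnight and midday and 1007 of the difference between the interactions. The 12 libraries alone gave 58 genes with neither swing called, and 4064 calls in all. DESeq2 called 5244 genes, RLE scaling 5107 and no filter 4842 of 16869. Leaving out 1 library gave 4433 to 5517 calls (2115 to 2665 positive, 2311 to 2852 negative), with 1483 to 1900 gained, 898 to 1221 lost, 432 to 745 reversed, 778 to 1007 larger, 448 to 647 smaller and 77 to 101 neither. Correlations of deviations from the group means ran from -0.20 to 0.37 for libraries of equal replicate number and from -0.42 to 0.31 for unequal numbers. The highest, 0.37, was between replicate 1 of reC3 ED and replicate 1 of reC3 EN. These values do not settle whether the numbers pair the reC3 libraries. A fit with the replicate block called 5060 genes, 2420 positive and 2640 negative. Of 142 named genes with a call, 141 kept it in DESeq2, 140 with RLE scaling, 125 with library totals alone and 139 with no filter. The stricter threshold kept 114, the 12 libraries alone 131 and the block 140, and none changed sign in any of these. Most of these genes were named for large interactions or small adjusted p in the same data, so their retention does not measure that of all calls. Of all 5090 calls, 3566 held whichever library was left out. The light reactions median of -2.33 was -1.74 with library totals alone and -1.69 without reC3 EN replicate 1, and the same settings gave -1.71 and -1.76 for the Calvin-Benson cycle and -0.80 and -1.11 for photorespiration. For named genes with 3 counts or fewer in a group, no fitted fold is given.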

Other observations

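In 5 transcription factor families, grouped by the descriptions in the table, positive interaction calls outnumbered negative ones, beside 17.2% positive and 19% negative over all genes. No test compared the families. NAC factors, many of which act in stress and senescence, had 23 positive and 1 negative call among 37, with a median of 1.48. WRKY factors, many of which act in defence, had 11 positive and no negative calls among 30, with a median of 0.90. AP2/ERF factors, which include ethylene and dehydration response factors, had 9 positive and 2 negative calls among 25. MYB factors had 11 and 5 among 56 (28.6% called), and bHLH factors 15 and 5 among 53 (37.7%), beside 36.2% of all genes. Their medians were near 0, at 0.005 and 0.06.

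Pentatricopeptide repeat proteins, which process RNA in plastids and mitochondria, had 1 positive and 29 negative calls among 162 (18.5% called, beside 36.2% of all genes). Their median swing was -1.41 in CAM and -0.83 in reC3. Aminoacyl-tRNA synthetases had 4 positive and 17 negative calls among 41 (51.2%), and proteasome subunits 12 and 1 among 31 (41.9%). Leucine-rich repeat kinases had 6 and 29 among 103 (34.0%), GDSL lipases 1 and 12 among 39 (33.3%), and cytochrome P450 enzymes 20 and 4 among 83 (28.9%). Calcium sensors and kinases had 24 and 7 among 94 (33.0%), and class III peroxidases 0 and 7 among 32 (21.9%). The peroxidase median of 0.33 was opposite in sign to the peroxidase calls, and the proteasome median was 0.003. The families were chosen with results of these data known, and members with close paralogs may share reads.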
